A study of Homo sapiens with 6 samples.

Results

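The genes described here, 10 of 59653 gene symbols in the table and chosen by name, encode the non-collagenous core of the basement membrane: the laminin alpha chain genes LAMA1, LAMA4 and LAMA5, the beta chain genes LAMB1 and LAMB2, the gamma chain gene LAMC1, the nidogen genes NID1 and NID2, and the heparan sulfate proteoglycan genes HSPG2 (perlecan) and AGRN (agrin). All 10 were found and all 10 passed the filter on low counts, among 17592 genes tested. RNA was sequenced from PA1, a human cell line from an ovarian teratocarcinoma that is labelled wildtype in every library, after transfection with a negative control siRNA (3 libraries) or with siRNA against the transcription factor SOX2 (3 libraries, called knockdown libraries below). A pair of SOX2 siRNAs is named in the labels, and whether both went into each culture is not stated. Cells were transfected in adherent culture and moved after 24 h onto poly-HEMA, a coating that keeps cells from attaching, for 72 h of growth before extraction, so both groups share transfection and suspension culture. Nothing in the labels says that replicates came from separate cultures, so p-values measure only the spread between these libraries, which may be technical.

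A basement membrane is a thin sheet of matrix on which epithelia and other cells rest. Its first layer is laminin, a cross-shaped trimer of an alpha, a beta and a gamma chain that is assembled inside the cell and polymerises on the cell surface, where integrins and dystroglycan hold it. Nidogens bind the laminin gamma chain and link it to the collagen IV network, perlecan and agrin carry heparan sulfate chains that bind growth factors, and agrin also ties laminin to dystroglycan. Early embryonic and pluripotent cells are known to make laminins with the LAMA1 and LAMA5 chains.

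Libraries held between 25152313 and 32753184 counts. SOX2, the targeted gene, was at 245, 265 and 256 counts per 1e6 (CPM, after TMM scaling of the libraries) in control replicates 1 to 3 and at 51.8, 54.9 and 50.6 CPM in knockdown replicates 1 to 3. Markers of embryonal carcinoma and pluripotent cells were present in every library, with 10 of 12 listed genes tested and a summed level of 2810 to 2880 CPM in control and 2780 to 2850 CPM in knockdown libraries. Within that sum, 4 genes were called higher and 3 lower: PODXL fell from 1320 to 671 CPM, while LIN28A rose from 706 to 1150 CPM and POU5F1 from 301 to 339 CPM (means, n = 3). Marker lists of other cell types also moved with the groups. Over all tested genes, 14.8% were called higher and 13.4% lower. Primitive and parietal endoderm, a cell type known for laminin output, summed to 64.0 to 64.8 CPM over 12 genes in control libraries. In knockdown libraries the sum was 87.8 to 96.9 CPM. Of 8 tested genes of that list 3 were higher. These were PDGFRA (30.9 to 42.5 CPM), DAB2 (21.0 to 28.7 CPM) and GATA4, at 6.58 ± 0.689 and 13.2 ± 0.438 CPM (SD, n = 3). Fibroblast and mesenchyme markers summed to 498 to 557 and 683 to 719 CPM over 10 genes, epithelial markers to 348 to 392 and 479 to 515 CPM over 12 genes, and Schwann cell and muscle markers to 108 to 110 and 143 to 152 CPM over 10 genes. The summed endothelial markers were lower in knockdown libraries, at 146 to 152 CPM in control and 121 to 123 CPM over 10 genes, with CLDN5 at 0 counts throughout. Of 7 tested endothelial genes 5 were lower, PECAM1 among them (64.2 to 43.7 CPM), and 2 higher, TIE1 among them (17.0 to 20.3 CPM). Trophoblast markers summed to 184 to 186 and 140 to 142 CPM over 10 genes, of which 3 were tested and CGA and PSG1 were at 0. TFAP2A made up most of that sum and fell from 181 to 135 CPM, while HAND1 rose from 1.68 to 3.44 CPM. The part of these markers in the results below was not tested. In RNA from whole cultures, fewer cells of a type and less RNA per cell cannot be told apart.

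After SOX2 siRNA the nidogens moved in opposite directions while the laminin core moved little. NID1 rose 1.56-fold and NID2 fell to 0.641 of its control level, AGRN rose 1.20-fold and LAMA1 rose 1.10-fold. The remaining 6 genes did not pass the test. By edgeR's quasi-likelihood test and Benjamini-Hochberg adjusted p-values, 4 of the 10 genes had an adjusted p under 0.05, 3 higher and 1 lower. Over all tested genes the share was 28.2%, with 14.8% higher and 13.4% lower, so a count of 4 in 10 stands near the background. Control and knockdown CPM ranges stood apart for 7 of the 10 genes, against 41.8% of all tested genes. The median log2 fold change of the 10 was 0.089, beside a median of -0.00085 over all tested genes, and their median absolute log2 fold change was 0.15, the same to 2 decimals as the 0.15 over all tested genes. Summed over the 10 genes, expression was 2184, 2168 and 2272 CPM in control replicates 1 to 3 and 2539, 2408 and 2420 CPM in knockdown replicates 1 to 3.

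**Figure D1:**
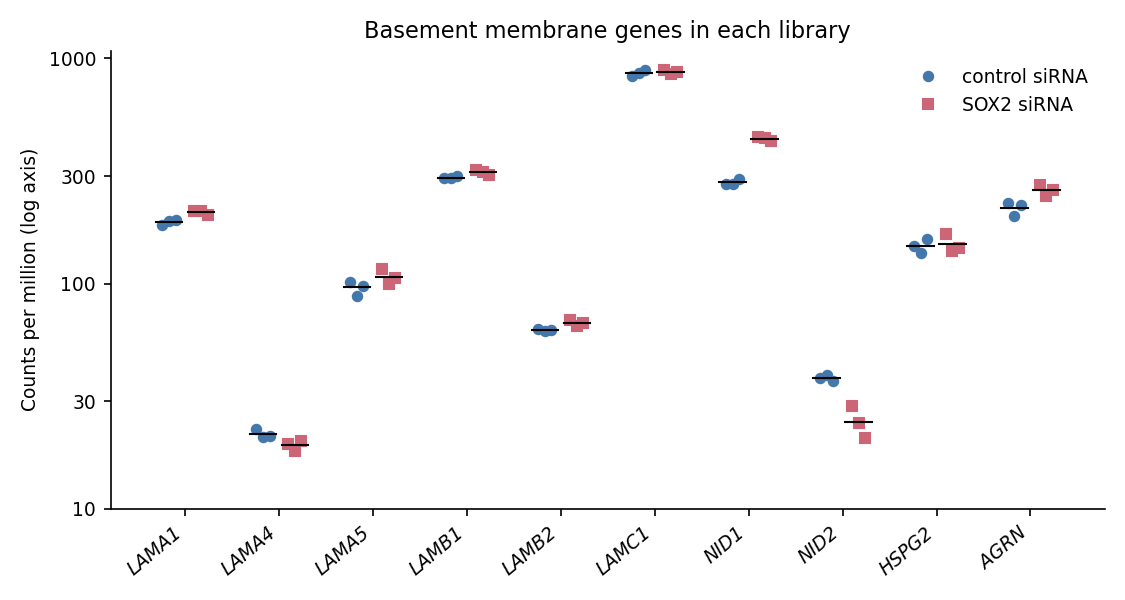
Expression of the 10 basement membrane genes in each library, in CPM on a log axis; circles are the 3 control siRNA libraries, squares the 3 SOX2 siRNA libraries and black lines their means. NID1 sits at 276 to 291 CPM in control and 431 to 449 CPM after SOX2 siRNA, NID2 at 36.9 to 39.2 and 20.6 to 28.5 CPM, and the LAMC1 libraries of both groups overlap.

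The nidogens carry the clearest difference. Both encode rod-shaped glycoproteins with globular ends that bridge laminin and collagen IV, and NID1 is the better studied of the pair. NID1 (GRCh38, chromosome 1, 235975830 to 236065162, minus strand) was at 278, 276 and 291 CPM in control replicates 1 to 3 and at 449, 442 and 431 CPM in knockdown replicates 1 to 3. Every knockdown library lay above every control library, and the gap between the groups was wider than the spread within either. The log2 fold change was 0.64 (SE 0.0351, 95% interval 0.57 to 0.72; edgeR adjusted p = 2.33e-10). NID2 (chromosome 14, 52004803 to 52069228, minus strand) was at 38.0, 39.2 and 36.9 CPM in control and 28.5, 24.0 and 20.6 CPM in knockdown replicates 1 to 3. All 3 knockdown libraries were lower than all controls, but they spread more widely, from 28.5 CPM in replicate 1 down to 20.6 CPM in replicate 3. The log2 fold change was -0.64 (SE 0.104, 95% interval -0.89 to -0.40; edgeR adjusted p = 0.00255). Exact two-sided permutation tests of the 3 against 3 libraries gave p = 0.1 for each gene, the smallest value this design allows. Of all genes called, 21.6% had a larger absolute log2 fold change than NID1.

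Measured per length, as CPM per kilobase of merged exon, NID2 made up 11.1, 11.5 and 10.4% of the nidogen level in control replicates 1 to 3 and 5.51, 4.74 and 4.20% in knockdown replicates 1 to 3. The groups did not overlap, and the mean share fell by 6.21 percentage points, from 11% ± 0.562 to 4.82% ± 0.655 (SD, n = 3; exact permutation p = 0.1, the smallest possible). The NID1 to NID2 ratio was 7.68 to 8.60 in control and 17.2 to 22.8 in knockdown libraries. NID1 is the more abundant nidogen, and the summed nidogen level was 53.2 to 55.5 CPM per kilobase in control and 76.6 to 81.0 in knockdown libraries. The ratio of summed nidogens to LAMC1, whose product binds nidogens, was 0.519 to 0.539 in control and 0.743 to 0.779 in knockdown libraries.

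Exons of NID2 overlap 1915 bases of exons of RTRAF, a gene on the opposite strand, and whether counting used strand is not given in the sources used here. RTRAF was at 141 CPM in control and 136 CPM in knockdown libraries (means, n = 3), with a log2 fold change of -0.045 (SE 0.0436; edgeR adjusted p = 0.491). The value of NID2 is uncertain to that extent, and no exon of another gene overlaps an exon of NID1.

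The DNA just upstream of both nidogen genes is shown, as they are paralogs with opposite changes. The stretches are taken from RefSeq's promoter windows (GRCh38.p14). They lie upstream of the start on which each window is set and of every start annotated for the gene in GENCODE 29. Other RefSeq starts were not checked. The stretches read 5′ to 3′ on the minus strand at chr1:236065163-236065340 for NID1 and chr14:52069229-52069309 for NID2. They differ in length, at 178 bases for NID1 and 81 for NID2, and in position. Between the stretch and the RefSeq start lie 72 bases for NID1 and 169 for NID2, which are not shown. The stretches therefore do not match base for base in their distance from the start. Capitals mark the GC box GGGCGG and the CCAAT box, searched on both strands (the reverse of CCAAT reads ATTGG).
NID1: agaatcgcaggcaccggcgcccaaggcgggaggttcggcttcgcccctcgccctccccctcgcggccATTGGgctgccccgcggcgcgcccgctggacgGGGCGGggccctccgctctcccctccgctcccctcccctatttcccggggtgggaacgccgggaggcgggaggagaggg
NID2: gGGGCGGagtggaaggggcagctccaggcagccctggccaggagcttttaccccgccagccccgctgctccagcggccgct
Over RefSeq's whole window of 300 bases (250 before and 50 after the start), NID1 holds 1 GC box and 1 CCAAT box, and NID2 holds 4 GC boxes and 2 CCAAT boxes. The NID2 stretch shown holds 1 GC box and 0 CCAAT boxes, so its others lie in the part not shown. Of 35116 promoter windows of that length, 44.95% hold a GC box and 34.61% a CCAAT box. The short SOX-type cores ACAAT and ACAAAG, held by 27.37% and 16.07% of windows, are in neither nidogen window. Promoter windows were found for 8 of the 10 genes. LAMA1 and AGRN, both called higher, had no window and were not searched. Among these, LAMB2 holds 1 ACAAT and HSPG2 holds 1 ACAAAG.

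Likeness to NID1 was ranked by the smallest root mean square difference of log2 CPM centred per gene over the 6 libraries. Only genes above a floor on average level were compared, 12118 besides NID1, while 17592 genes were tested. The nearest patterns were those of GPCPD1 (0.0221), MSRB3 (0.0266), SGSM2 (0.0308), CPD (0.0340) and KCTD15 (0.0342). Their log2 fold changes were 0.64, 0.67, 0.62, 0.62 and 0.69. The rule picks genes with a change like that of NID1, so these values follow from the choice.

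**Figure D2:**
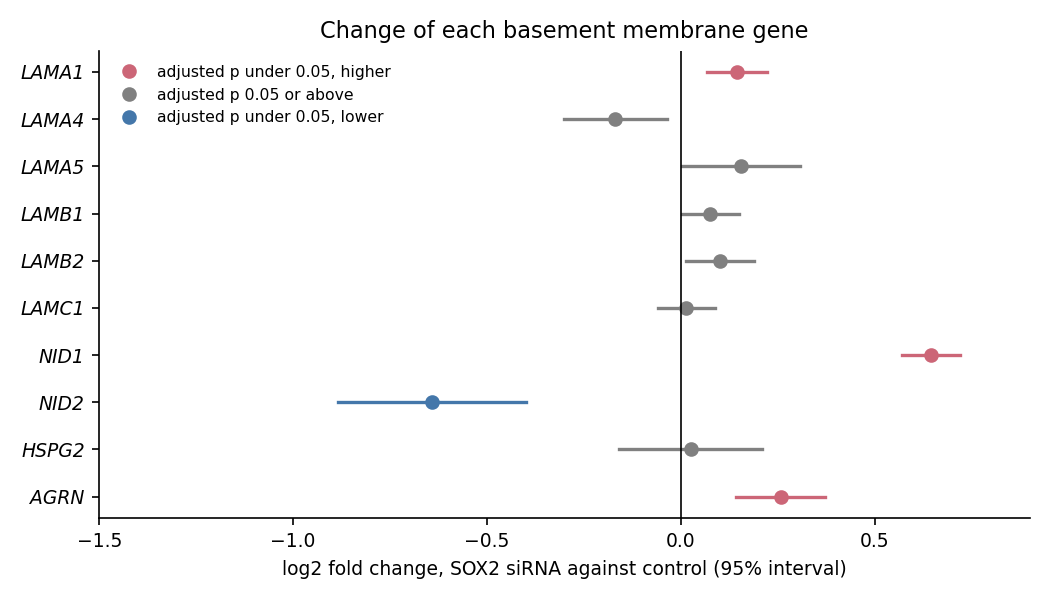
Log2 fold change of each gene after SOX2 siRNA against control, with its unadjusted 95% interval from the edgeR fit (n = 3 libraries per group); colour marks the adjusted p. NID1 at 0.64 and NID2 at -0.64 stand apart from the other 8 genes, which lie between -0.17 and 0.26.

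Among the laminin alpha chains LAMA1 passed the test, with a small change. LAMA1 (chromosome 18, 6941744 to 7117814, minus strand), whose product is the alpha chain of the earliest embryonic basement membranes, was at 182, 190 and 192 CPM in control replicates 1 to 3 and 211, 211 and 201 CPM in knockdown replicates 1 to 3. The groups did not overlap, with 192 CPM as the highest control and 201 CPM as the lowest knockdown library. The log2 fold change was 0.14 (SE 0.0366; edgeR adjusted p = 0.00671). Without knockdown replicate 2 it was 0.13, with an adjusted p of 0.0555 in edgeR.

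LAMA5 (chromosome 20, 62307955 to 62367312, minus strand), the alpha chain common in adult epithelia and vessels, was at 102, 88.4 and 98.0 CPM in control and 117, 99.3 and 106 CPM in knockdown libraries. The groups overlapped, since knockdown replicate 2 lay below control replicate 1. The log2 fold change was 0.16 (SE 0.0672, 95% interval 0.0041 to 0.31; edgeR adjusted p = 0.123). LAMA4 (chromosome 6, 112108760 to 112254939, minus strand), the truncated alpha chain of vessels, nerve and muscle, was at 22.6, 20.9 and 21.1 CPM in control and 19.5, 18.1 and 20.02 CPM in knockdown libraries. Its groups did not overlap, yet its log2 fold change of -0.17 (SE 0.0630, 95% interval -0.30 to -0.036) did not pass the adjusted threshold (edgeR adjusted p = 0.0554).

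Per length, LAMA1 made up 55.8 to 59.9% of the summed alpha chain level in control and 57.4 to 60.9% in knockdown libraries. That sum holds LAMA1, LAMA4 and LAMA5, without LAMA2 and LAMA3. The mean difference was 0.849 percentage points (58.0% ± 2.06 and 58.8% ± 1.85, SD, n = 3; exact permutation p = 0.7), within the spread of the replicates, and it changed sign without control replicate 1 (-0.233) or knockdown replicate 2 (-0.204). LAMA5 followed with 31.0 to 34.7% and 31.9 to 35.3% (exact permutation p = 0.6). LAMA4 was lowest of those summed, at 9.51, 9.06 and 8.78% in control and 7.28, 7.18 and 7.93% in knockdown replicates 1 to 3. The groups did not overlap in the LAMA4 share, and the means were 9.12% ± 0.369 and 7.47% ± 0.405 (SD, n = 3; exact permutation p = 0.1).

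Neither beta chain gene nor the gamma chain gene passed the test. LAMB1 (chromosome 7, 107923799 to 108003255, minus strand), the general beta chain, was at 293, 293 and 300 CPM in control and 320, 312 and 303 CPM in knockdown replicates 1 to 3. The ranges did not overlap, but the log2 fold change was only 0.076 (SE 0.0342, 95% interval 0.0043 to 0.15; edgeR adjusted p = 0.11). LAMB2 (chromosome 3, 49121114 to 49133118, minus strand), the beta chain of kidney glomeruli and neuromuscular junctions, was at 62.9, 61.6 and 62.1 CPM in control and 68.6, 64.7 and 66.9 CPM in knockdown libraries. It too had ranges that did not overlap and a log2 fold change, 0.10 (SE 0.0418, 95% interval 0.012 to 0.19), that did not pass (edgeR adjusted p = 0.0854). LAMB2 made up 19.7 to 20.3% of the beta chain level in control and 19.7 to 20.8% after the knockdown, with overlapping groups (n = 3 each; exact permutation p = 0.4).

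LAMC1 (chromosome 1, 183023460 to 183145592, plus strand) encodes the gamma chain found in most laminin trimers, which binds nidogen. It was at 831, 862 and 890.1 CPM in control and 887, 853 and 867 CPM in knockdown replicates 1 to 3. The groups overlapped throughout. Its log2 fold change was 0.014 (SE 0.0349, 95% interval -0.060 to 0.088; edgeR adjusted p = 0.817), with the sign turning under upper-quartile scaling (-0.0059) and without control replicate 1 (-0.011) or knockdown replicate 1 (-0.0050). The interval reaches no further than 0.088 on the log2 scale in either direction.

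Of the proteoglycan genes AGRN passed the test and HSPG2 did not, and the difference between them was not tested. AGRN (chromosome 1, 1020123 to 1056118, plus strand), known for gathering acetylcholine receptors at the neuromuscular junction and present in many epithelial basement membranes, was at 228, 200.2 and 224 CPM in control and 274, 245 and 261 CPM in knockdown replicates 1 to 3. The lowest knockdown library, at 245 CPM, lay above the highest control, at 228 CPM. The log2 fold change was 0.26 (SE 0.0530; edgeR adjusted p = 0.00324). HSPG2 (chromosome 1, 21822245 to 21937297, minus strand), encoding the large proteoglycan perlecan, was at 146, 137 and 157 CPM in control and 165, 139 and 144 CPM in knockdown libraries. The groups overlapped, and the log2 fold change was 0.025 (SE 0.0776, 95% interval -0.16 to 0.21; edgeR adjusted p = 0.858), with the sign turning without control replicate 2 (-0.022) or knockdown replicate 1 (-0.058).

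Base composition and these sizes were set side by side. AGRN, LAMA5, HSPG2 and LAMB2 are rich in G and C, at 67.5, 66.4, 64.5 and 60.3% of the longest transcript, while the other 6 genes lie between 46.6 and 52.0%. Tested genes in the top quartile of GC content (56.0 to 75.2%) had a median log2 fold change of 0.068, against -0.036 in the bottom quartile (26.7 to 42.0%). With offsets for GC content and transcript length, the log2 fold change of AGRN fell to 0.12 (edgeR adjusted p = 0.0189), those of LAMA5 and LAMB2 to 0.027 and 0.018, and that of HSPG2 turned to -0.088 (edgeR adjusted p = 0.132). NID1, NID2 and LAMA1 were at 0.63, -0.66 and 0.13 in that fit, and kept their calls. GC content and length entered that fit together, so the part of each was not tested.

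Compared per kilobase of merged exon in control libraries, LAMC1 was the most abundant of the 10 at 102 ± 3.50 CPM per kilobase (SD, n = 3), followed by NID1 (48.1 ± 1.44), LAMB1 (36.3 ± 0.477), AGRN (20.2 ± 1.38) and LAMA1 (11.8 ± 0.321). The lower end held LAMB2 (9.06 ± 0.0933), HSPG2 (8.10 ± 0.565), LAMA5 (6.72 ± 0.483), NID2 (5.95 ± 0.177) and LAMA4 (1.86 ± 0.0814). No neighbours in this order overlapped between their control libraries. The order of the knockdown libraries was the same, with NID1 now at 75.1 ± 1.59 CPM per kilobase and HSPG2 and LAMA5 overlapping. Scaled by the longest annotated transcript in place of merged exons, LAMB1 stood above NID1 in control libraries (51.2 and 48.1 CPM per kilobase) and below it after SOX2 siRNA (54.0 and 75.1).

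Laminin trimers hold 1 chain of each kind, but the transcripts did not stand in equal amounts. Sums here hold only the chain genes among the 10. LAMC1 exceeded the summed alpha chains by 4.81 to 5.14 times in control and 4.57 to 4.73 times in knockdown libraries per kilobase of merged exon, and the summed beta chains by 2.19 to 2.31 and 2.13 to 2.2 times. With longest transcripts as the length, the excess over the alpha chains was 3.52 to 3.74 and 3.36 to 3.47 times. The size of the excess thus depends on the length used, while gamma stood above beta and beta above alpha in all 6 libraries on the merged-exon scale.

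**Figure D3:**
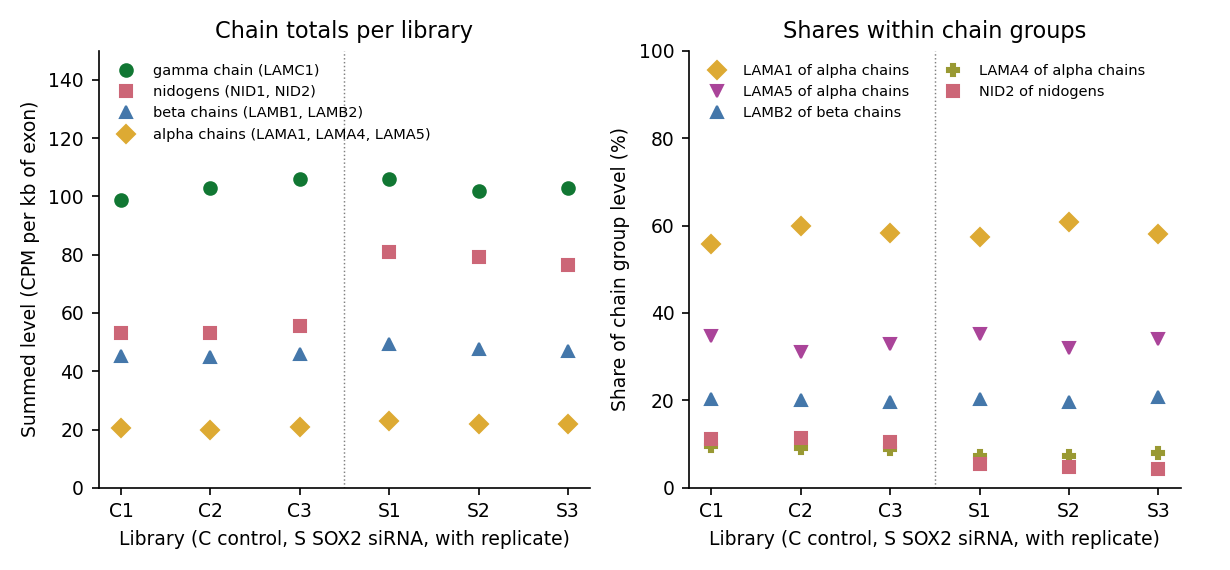
Left, summed level of each chain group per library in CPM per kilobase of merged exon; right, the share of single genes within their chain group, in percent (C, control; S, SOX2 siRNA; digits are replicates). The nidogen total is 53.2 to 55.5 in control and 76.6 to 81.0 after SOX2 siRNA, the NID2 share is 10.4 to 11.5% and 4.20 to 5.51%, and the LAMA1, LAMA5 and LAMB2 shares overlap between groups.

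The rest of the pathway was read from lists of related genes, chosen with earlier results of these data known. Their shares of calls were not tested against the share over all tested genes. The other laminin chains were scarce. Of 6 listed, 4 were tested and 1 rose: LAMC3, a gamma chain gene, from 0.684 ± 0.119 CPM to 3.28 ± 0.405 (SD, n = 3), a log2 fold change of 2.25 (SE 0.204; edgeR adjusted p = 1.96e-07). LAMA2 and LAMA3 did not pass, at 9.82 and 0.768 CPM in control and 8.66 and 0.794 CPM in knockdown libraries (means, n = 3). LAMB3 and LAMB4 were not tested. LAMB3 had 6, 1 and 2 counts in control and 4, 6 and 57 in knockdown replicates 1 to 3, with the highest count in knockdown replicate 3.

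Of 28 other basement membrane components and netrins, 18 were tested, with 6 higher and 4 lower (55.6% called, beside 28.2% of all tested genes) and a median log2 fold change of 0.035. HMCN1, encoding the giant matrix protein hemicentin, rose from 53.7 ± 3.67 CPM to 152 ± 4.62 (SD, n = 3), a log2 fold change of 1.5 (SE 0.0479; edgeR adjusted p = 2.08e-13). FBLN2 and MATN2, genes of matrix adaptor proteins, rose by 0.67 and 0.31 on the log2 scale, and EGFLAM, encoding the dystroglycan ligand pikachurin, rose by 1.30 from a low level of 1.30 CPM. FBLN1, SMOC1, FRAS1 and FREM2 were the 4 that fell, by 0.26, 0.27, 0.13 and 0.12 on the log2 scale, and were named after their values were seen. With GC and length offsets 6 were higher and 2 lower, and the lower genes also numbered 2 without control replicate 2, control replicate 3 or knockdown replicate 2.

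Among 28 laminin and proteoglycan receptors and their partners, 26 were tested, 10 higher and 4 lower (53.8% called, beside 28.2% of all tested genes), with a median log2 fold change of 0.099. ITGA6, a laminin-binding integrin subunit, fell from 355 ± 6.46 CPM to 181 ± 3.91 (SD, n = 3), a log2 fold change of -0.97 (SE 0.0346; edgeR adjusted p = 8.12e-13), while its partner subunit ITGB1 rose from 729 ± 22.6 CPM to 1044 ± 18.3, a log2 fold change of 0.52. The syndecan gene SDC1 rose from 19.0 to 39.0 CPM and DMD, encoding dystrophin, from 74.2 to 144 CPM (means, n = 3; log2 fold changes 1.03 and 0.95). DAG1, the dystroglycan gene, was at 315 ± 5.23 and 319 ± 5.02 CPM and did not pass (log2 fold change 0.017, SE 0.0332, 95% interval -0.053 to 0.087; edgeR adjusted p = 0.758).

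Enzymes that build matriglycan, the sugar chain by which dystroglycan holds laminin and agrin, changed little. All 18 listed genes were tested, with 2 higher and 3 lower, a share of 27.8% beside the background of 28.2%, and a median log2 fold change of 0.043. POMGNT1 rose by 0.21 on the log2 scale and B3GALNT2 fell by 0.15. Without control replicate 3, 3 genes of the list were called in place of 5.

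Enzymes that make and edit heparan sulfate, the chain carried by perlecan and agrin, had the highest share of calls among the 5 lists, 66.7% of 24 tested (28 listed) beside 28.2% of all tested genes, with 13 higher and 3 lower and a median log2 fold change of 0.17. SULF1, an enzyme that removes sulfate groups from heparan sulfate outside the cell, rose from 18.4 ± 0.882 CPM to 70.2 ± 2.85 (SD, n = 3), a log2 fold change of 1.94 (SE 0.0531; edgeR adjusted p = 2.43e-14). The sulfotransferase genes HS3ST3B1, HS6ST2 and HS6ST1, which add sulfate, rose by 0.95, 0.59 and 0.43 on the log2 scale, so genes of sulfate addition and of sulfate removal were both among those that rose. The 3 lower genes were FAM20B, GLCE and SULF2, named after their values were seen, which fell by 0.12, 0.33 and 0.31 on the log2 scale. Over the alternatives 12 or 13 genes of the list were higher, with 12 when at least 10 counts were required in every library and without knockdown replicate 2. The lower genes numbered 1 to 3, with 1 without control replicate 3 or knockdown replicate 1.

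**Figure D4:**
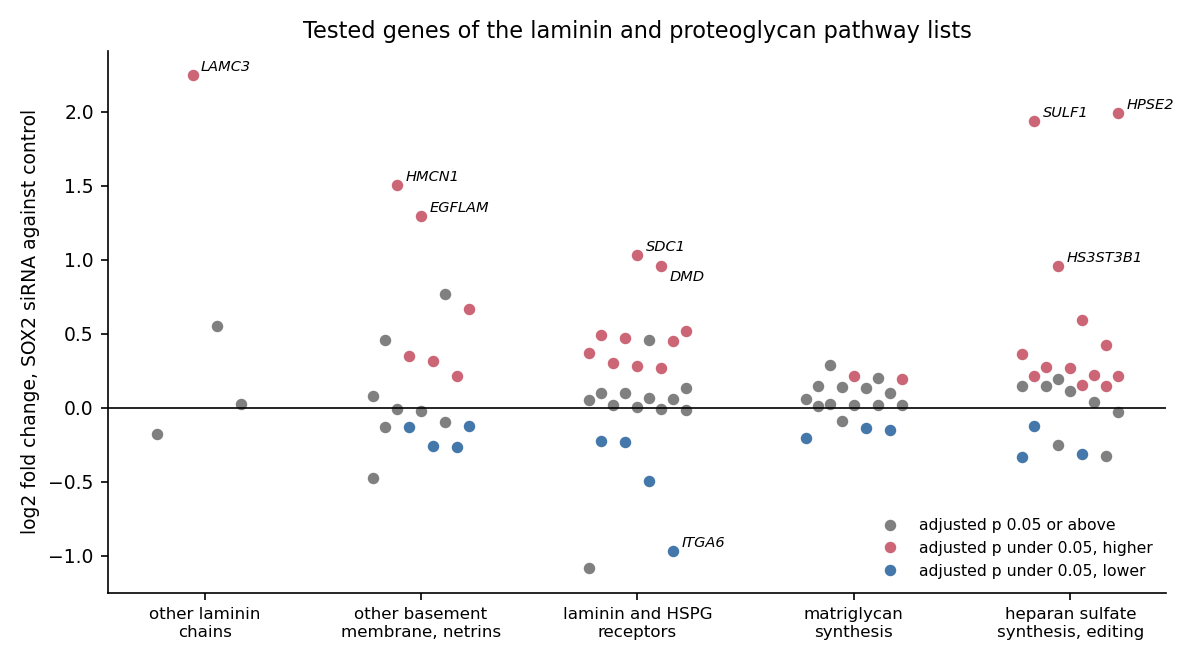
Log2 fold change after SOX2 siRNA of each tested gene in 5 lists of genes around laminin and its proteoglycans; each point is 1 gene (n = 3 libraries per group), coloured by its adjusted p. Points past 0.8 in either direction that passed the test are named; the heparan sulfate list holds 13 higher and 3 lower genes, the matriglycan list 2 and 3.

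Other members overlap neighbouring genes as well. Exons of HSPG2 overlap 2121 bases of LDLRAD2 on the opposite strand, which had 6 to 10 counts per library, and exons of LAMA1 overlap 1641 bases of the antisense gene AP002409.1, which had 0 to 2 counts. LAMA5 shares 244 exon bases with ADRM1 and LAMB1 shares 70 with DLD, both on the opposite strand and with log2 fold changes of 0.068 and 0.00070 that did not pass in edgeR (adjusted p = 0.323 and 0.992). LAMB1 also shares 221 exon bases with AC005046.1 (1 to 9 counts per library) and LAMA4 shares 206 with Z99289.1 (0 counts). AGRN shares 402 exon bases with AL645608.5 on the same strand (225 to 308 counts per library), so its count is uncertain whether or not strand was used.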

How the data were processed

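What the authors deposited is a table of raw counts (whole numbers, unequal library totals), with gene symbols as rows and a column for each library. The submitters' processing notes name bcl2fastq 2.20.0, STAR 2.7.3a, Salmon 0.14.1, DESeq2 1.28.1 and the build GRCh38.p13; which program made the counts, the annotation and the use of strand are not given in the sources used here. Reads from paralogs or overlapping genes may therefore be divided in ways that cannot be checked. Per the labels' protocols, Trizol was used for the RNA and the KAPA mRNA HyperPrep kit for the libraries. Columns were matched to libraries by the identifier in each description.

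Fits were run with edgeR 4.0.16 in R 4.3.3, and alternatives with DESeq2 1.42.0 or limma 3.58.1. Permutation tests used scipy 1.17.1 in Python 3.11.15. Genes were kept by filterByExpr (minimum count 10) and scaled by TMM, and tested by edgeR's quasi-likelihood F-test (robust) on group. P-values were adjusted by Benjamini-Hochberg across the 17592 genes kept, and 0.05 was the threshold. About 99.9% of counts fell in tested genes. At these depths 3 counts equal 0.0909 to 0.12 CPM, which covers counting error only. Intervals of log2 fold changes are 95% intervals of the same fit, not adjusted for the number of genes. Each share was tested by exact two-sided permutation, which cannot go below 0.1 with 3 against 3. Lengths, GC content, coordinates and exon overlaps are from GENCODE 29 (GRCh38), which matched 96.4% of tested symbols and need not be the authors' annotation.

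The 10 genes and the lists were chosen with earlier results of these data known. Genes named are SOX2, the 10, in each list the called genes of lowest p (4 at most), the 3 highest markers per cell type, of which some are printed, and the 5 nearest to NID1. Other list genes were named after their values were seen: FBLN1, SMOC1, FRAS1, FREM2, FAM20B, GLCE, SULF2, DAG1, LAMA2, LAMA3, LAMB3, LAMB4, PXDN, FREM3, TINAG, NDST3 and HS3ST2. Some list genes that the rule names are not reported here. Alternatives were scaling by DESeq2 size factors or upper quartiles, a filter of 1 count or of 10 counts per library, limma-voom, the Wald test of DESeq2, each library left out, the replicate number as a block, loess offsets for GC content and length (span 0.4) with and without the block, and for shares raw counts and longest transcripts. No library was left out of the values reported.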

Additional observations from a re-analysis of the deposited data

How the results depend on the processing

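NID1 (0.63 to 0.67), NID2 (-0.77 to -0.54), AGRN (0.12 to 0.30) and SOX2 (-2.32 to -2.25) kept their direction and call under each of 15 alternatives, and LAMA1 (0.12 to 0.16) under 14. LAMA4 was called under upper-quartile scaling, with at least 10 counts in every library and without SOX2 siRNA replicate 3 (adjusted p 0.0358, 0.0491 and 0.0434, over a range of 0.0358 to 0.239). LAMA5 was called with no filter beyond 1 count, with the replicate block and without SOX2 siRNA replicate 2 (adjusted p 0.00179, 0.00319 and 0.0297, over a range of 0.00179 to 0.667). LAMC1 turned to -0.00585 under upper-quartile scaling and ranged from -0.0106 to 0.0391 when a library was left out. HSPG2 turned to -0.0879 with GC and length offsets and to -0.0863 with the replicate block and those offsets, and ranged from -0.058 to 0.0777 when a library was left out. The LAMA1 share difference ranged from -0.233 to 1.82 percentage points when a library was left out. The cause of these changes was not tested. The number of the 10 genes called was 4 or 5 under every alternative, the number of genes called over the whole table ranged from 3760 (without SOX2 siRNA replicate 2) to 5212, and upper-quartile scaling moved the share of higher calls from 52.4% to 45.8%. With the replicate number as a block, 5 of the 10 genes and 5177 genes in all were called. The labels do not say what the number stands for, and same-numbered libraries correlated at 0.0868, -0.0377 and -0.0311 in their deviations from the group means, so the block was not taken as a pairing. Of 495 values for 33 single genes, 4 lost their call, 6 gained one and 7 changed sign. Depth limits list genes such as LAMB4, at 1 to 4 counts per library.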

Other observations

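PXDN, encoding a peroxidase of the basement membrane, was counted 5, 0 and 14 times in the controls (replicates 1 to 3) and 7, 3 and 35 times after SOX2 siRNA. SOX2 siRNA replicate 3, which had 57 counts of LAMB3 and 35 of PXDN, was also the library with the lowest NID2 level. FREM3, TINAG, NDST3 and HS3ST2 were at 0 counts in all 6 libraries.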
